A study of Mus musculus with 5 samples.

Results

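The genes described here are 8 genes, other than keratins, that mark the basal cell state of airway epithelium: Trp63, Snai2, Ngfr, Pdpn, Bcam, Dlk2, Nppc and Dapl1. They were taken by name, and every probe set that the array annotation gives to 1 of them alone was used, which made 15 probe sets of 45037 and 8 genes of 18193. Levels are compared between sorted tracheal duct cells (3 arrays) and sorted tracheal basal cells (2 arrays). All animals were C57BL/6 mice of both sexes, aged 8 to 12 weeks, and each array held RNA from its own pool of 10 to 15 mice. No transgene or treatment was named. Duct cells came from the upper part of the trachea, were recovered after pronase had removed the surface epithelium, and were sorted on a surface antigen without ITGA6. Basal cells came from the lower part, were freed from the surface epithelium with dispase, and were sorted on ITGA6 together with a surface antigen. Enzyme, tracheal section and sort gate therefore cannot be told apart from cell type.

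Basal cells lie on the basement membrane of the pseudostratified airway epithelium and act as its stem cells, and the ducts of the submucosal glands hold cells that share markers with them. The transcription factor p63, encoded by Trp63, is required for basal cells to form. NGFR and podoplanin are surface proteins by which basal cells of the airway are recognised and sorted, and BCAM binds laminin of the basement membrane.

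All 8 genes were measured in both populations, and all 8 had a lower mean level in duct cells than in basal cells, as had 58.4% of all tested genes. The direction of 2 of them was not stable: Dlk2 turned to 0.02 when each array was centred on its median and to 0.28 without basal replicate 1, and Nppc turned to 0.10 without duct replicate 3. None of the differences passed the test (limma, adjusted p under 0.05), a call that 0.136% of all 12536 tested genes reached as lower in duct cells and 0.838% as higher. The median log2 fold change of the 8 genes, duct minus basal, was -0.67, against -0.12 for all tested genes. In 6 of the 8 every duct array lay below both basal arrays, which was so for 22.6% of all tested genes, and 2 of the 8, Ngfr and Pdpn, had an unadjusted p under 0.05, as 10.6% of all tested genes did in that direction. Ngfr stood furthest down, at 3.38-fold lower in duct cells, and Dlk2 and Nppc overlapped between the groups. In sorted bulk samples, fewer cells of a type and less RNA per cell cannot be told apart.

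Intensities are in arbitrary units, and their mean, leaving out the lowest and highest 2% of probe sets, was 500.0 on each array. That equality was set by the authors' scaling and does not show that the arrays were alike. The median intensity was 92.3 on duct replicate 1 and 146.6 to 152.8 on the other arrays. Probe sets for Bacillus transcripts, absent from mouse, measured background, and the brightest of the 27 was at 39.5 to 61.9 on the duct arrays and at 59.7 and 86.5 on the basal arrays. The most intense probe set of each of the 8 genes was above that level on every array. All 4 basal keratins were above it as well, on every array. Krt5, which pairs with Krt14 in basal layers, read 16830 to 19821 in duct cells, against 11617 and 12334 in basal cells, and Krt15 read 20755 to 24876 in duct cells, against 20212 and 20242 in basal cells. Krt14 was higher in duct cells by 3.78 on the log2 scale (adjusted p = 0.00595, limma). The name of its probe set has a suffix that marks possible binding of other transcripts, so this difference may not be that of Krt14 alone. Levels of different genes are not compared, since probe sets differ in how they bind.

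**Figure D1:**
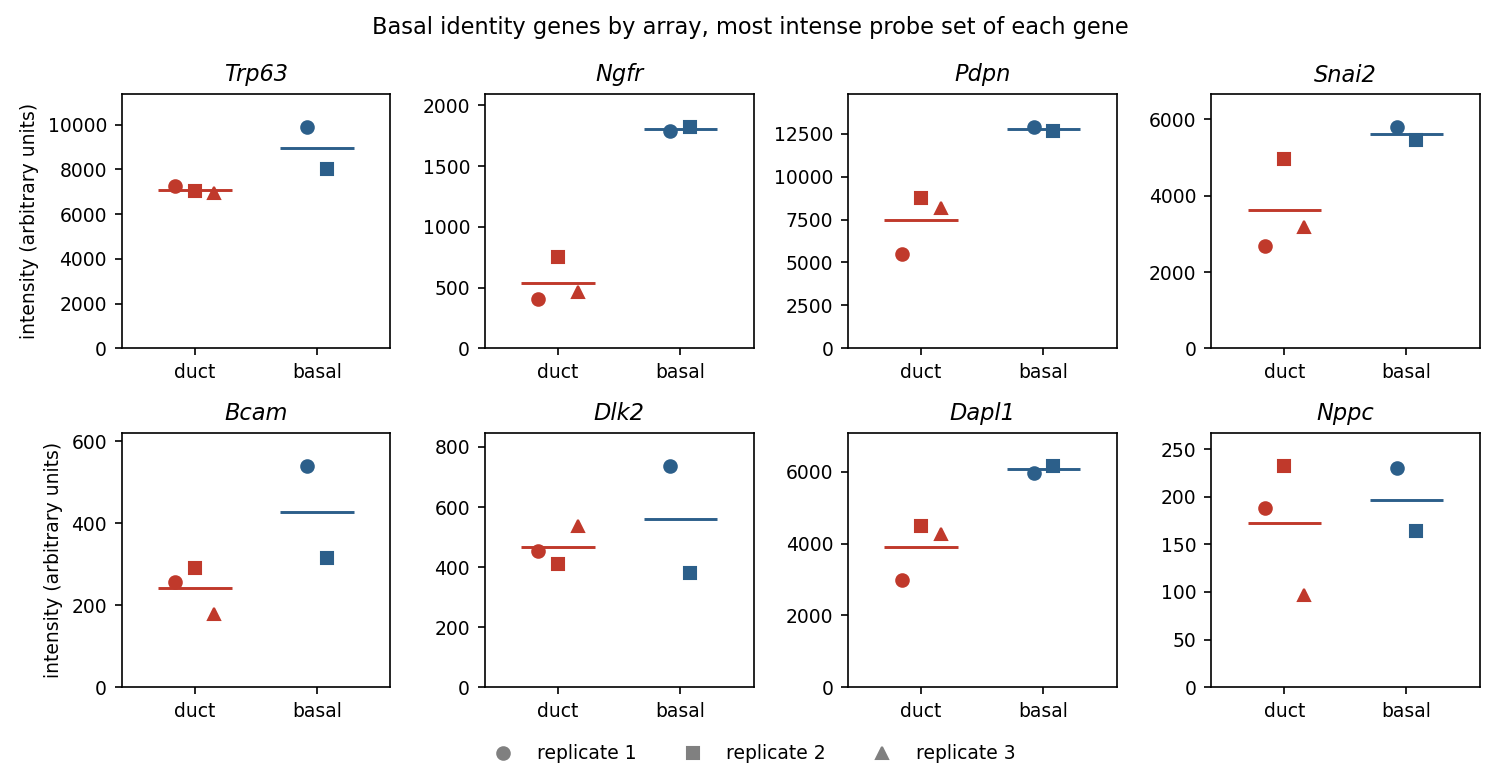
Intensity in arbitrary units of the most intense probe set of each gene, one point per array with replicates 1 to 3 as circle, square and triangle; the bar is the group mean, with 3 duct arrays on the left and 2 basal arrays on the right of each panel. Duct points of Trp63, Ngfr, Pdpn, Snai2, Bcam and Dapl1 lie below both basal points, and those of Dlk2 and Nppc overlap them.

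Trp63 encodes the transcription factor p63 and had the smallest difference of the 6 genes whose groups did not overlap. Its most intense probe set, 1452027_a_at, read 7243, 7053 and 6944 in duct cells, against 9891 and 8038 in basal cells. The duct arrays were nearly alike, and the basal arrays differed from each other by about as much as the groups did. The log2 fold change was -0.33 with an SE of 0.24 (95% interval -0.91 to 0.25, adjusted p = 0.499, limma), and it was -0.18 without basal replicate 1 and -0.48 without basal replicate 2. A second probe set, 1418158_at, read 4406, 4292 and 3318 in duct cells, against 5760 and 5720 in basal cells, a log2 difference of -0.53. Probe set 1451876_a_at, read 800.3, 1394 and 1623 in duct cells, against 1273 and 1292 in basal cells, so that its groups overlapped. Its log2 fold change was -0.07 and turned to 0.13 when each array was centred on its median. The fourth, 1459581_at, was too dim for the test and lay at or below the brightest Bacillus probe set on 4 of the 5 arrays.

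Snai2 encodes Slug, a zinc finger repressor that binds E-box DNA and is known for lowering E-cadherin. Its most intense probe set, 1447643_x_at, whose suffix marks possible binding of other transcripts, read 2693, 4966 and 3187 in duct cells, against 5797 and 5462 in basal cells. Duct replicate 2 came close to the basal arrays, and the other 2 duct arrays were well below them. Duct cells differed from basal cells by a log2 fold change of -0.69 with an SE of 0.33 (adjusted p = 0.334, limma), and it was -0.50 without duct replicate 1 and -0.94 without duct replicate 2. A probe set without that mark, 1418673_at, read 493.8, 749.9 and 437.4 in duct cells, against 772.9 and 888.7 in basal cells, with the same array closest to the basal group. Cdh1, the E-cadherin gene, read 10117 to 11535 in duct cells, against 7147 and 7813 in basal cells, which did not pass the test (adjusted p = 0.312, limma).

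Ngfr encodes the low-affinity receptor of the neurotrophins. Its most intense probe set, 1450177_at, read 405.8, 754.3 and 466.3 in duct cells, against 1791 and 1820 in basal cells. The basal arrays were almost equal, and the lowest of them was 2.37 times the highest duct array. The log2 fold change was -1.76 with an SE of 0.33 (95% interval -2.57 to -0.94), with an unadjusted p of 0.00199 and an adjusted p of 0.0786 (limma). The call was reached under 3 of 18 other settings, with a lowest adjusted p of 0.00591 and a highest of 0.327. The other probe sets of the gene did not show the same size: 1421241_at read 58.4, 131.3 and 58.1 in duct cells, against 139.9 and 207.7 in basal cells, and 1454903_at read 325.2, 459.8 and 502.1 in duct cells, against 631.8 and 440.7 in basal cells. Duct arrays lay below basal arrays on 1421241_at, and the groups overlapped on 1454903_at, with a log2 fold change of -0.31 that was -0.06 without basal replicate 1 and -0.56 without basal replicate 2. With the mean of all its probe sets, Ngfr had a log2 fold change of -1.02.

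Pdpn encodes podoplanin, a mucin-like membrane glycoprotein that binds the platelet receptor CLEC-2 and, inside the cell, ezrin and moesin. Its 1 probe set, 1419309_at, read 5467, 8776 and 8186 in duct cells, against 12874 and 12645 in basal cells. All duct arrays lay below the nearly equal basal arrays, replicate 1 furthest. The log2 fold change was -0.80 with an SE of 0.30 (95% interval -1.53 to -0.07, unadjusted p = 0.0369, adjusted p = 0.237, limma). Without duct replicate 1, the array with the lowest median intensity, it was -0.59.

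Bcam encodes the Lutheran glycoprotein, a receptor for the laminin alpha5 chain. Its probe set 1424791_a_at, whose suffix marks several transcripts of the gene, read 256.7, 290.9 and 179.2 in duct cells, against 539.9 and 316.1 in basal cells. The groups were separate by a narrow margin, since basal replicate 2 was 1.09 times the highest duct array. This gave a log2 fold change of -0.76 with an SE of 0.35 (adjusted p = 0.315, limma), and this was -0.39 without basal replicate 1 and -1.13 without basal replicate 2. Lama5, which encodes the laminin chain that BCAM binds, read 1266 to 1694 in duct cells, against 1495 and 1649 in basal cells.

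Of the genes for ligands and ligand-like proteins, Dlk2 encodes a membrane protein with EGF-like repeats related to the Notch ligands. Its most intense probe set, 1420807_a_at, read 453.1, 411.6 and 538.0 in duct cells, against 736.9 and 380.3 in basal cells. The duct arrays lay between the basal arrays, which differed from each other by 0.93 on the log2 scale. For Dlk2 the log2 fold change was -0.18 (95% interval -1.04 to 0.67, adjusted p = 0.811, limma) and turned to 0.02 when each array was centred on its median. A second probe set, 1450005_x_at, read 243.8, 49.8 and 237.1 in duct cells, against 217.9 and 51.4 in basal cells, so that an array of each group was near background and the others near each other.

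Nppc encodes the precursor of C-type natriuretic peptide, a ligand of the receptor NPR2. Its probe set 1422790_at read 188.4, 232.3 and 96.9 in duct cells, against 229.6 and 163.7 in basal cells. Duct replicate 2 was the highest array and duct replicate 3 the lowest, so that the basal arrays lay within the duct range. For Nppc the log2 fold change was -0.23 (95% interval -1.23 to 0.77, adjusted p = 0.795, limma) and became 0.10 without duct replicate 3.

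Dapl1 encodes a protein related to the death-associated protein DAP and known from stratifying epithelium. Its probe set 1453568_at read 2995, 4483 and 4270 in duct cells, against 5977 and 6161 in basal cells. As with Pdpn, the basal arrays were nearly equal, all duct arrays lay below them and duct replicate 1 was lowest. The log2 fold change was -0.65 with an SE of 0.28 (95% interval -1.34 to 0.04, adjusted p = 0.290, limma), and it was -0.47 without duct replicate 1.

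The probe sets were also fitted one by one. Of 14 that were tested, 13 were lower and 1 was higher in duct cells, where 58.8% of all tested probe sets were lower, and none passed the test, which called 0.0185% of 27022 probe sets as lower and 0.215% as higher. In 9 the duct arrays lay below both basal arrays, as in 20.7% of all tested probe sets, and in 5 the groups overlapped. An unadjusted p under 0.05 was reached by 2, one each of Ngfr and Pdpn, and by 8.68% of all tested probe sets in that direction. Probe sets of 1 gene share their target and are not replicates of each other.

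**Figure D2:**
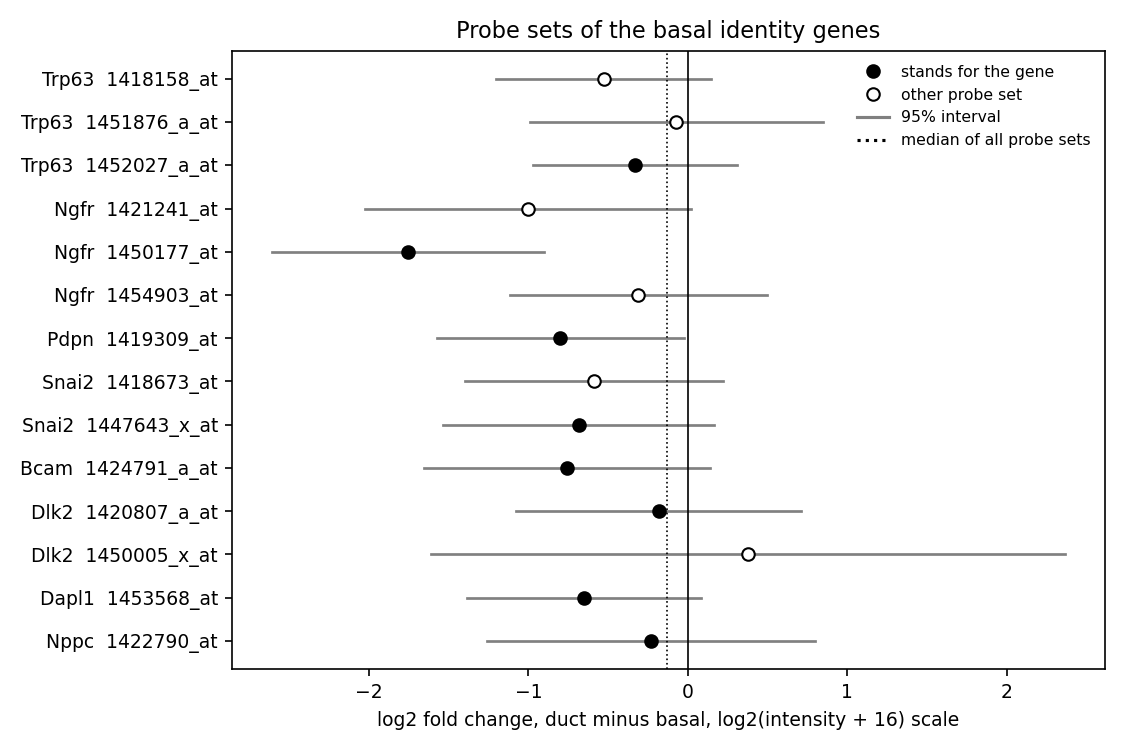
Each tested probe set as its log2 fold change (duct minus basal, from intensities plus 16) with its 95% interval (limma). Filled points stand for the gene, and the dotted line is the median of all tested probe sets. The interval excludes 0 for Ngfr 1450177_at and Pdpn 1419309_at, and the point estimates of Dlk2 1420807_a_at and Trp63 1451876_a_at turn positive when arrays are centred on their medians.

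The genes differed in how they varied over the 5 arrays. Each profile was centred on its own mean on the log2(intensity + 16) scale and profiles were compared by their root mean square difference. Pdpn and Dapl1 were the closest pair at 0.0825, and Ngfr and Dlk2 the furthest apart at 0.908. Snai2 lay 0.182 from Pdpn and 0.185 from Dapl1. Pdpn, Dapl1, Ngfr and Snai2 shared the lowest duct value in replicate 1 and the highest in replicate 2. Bcam and Nppc had their lowest duct value in replicate 3, and Dlk2 had its highest there.

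Among all tested genes, those nearest to each profile over the 5 arrays were named by rule, 2 for each gene. They were Snw1 (0.0415) and Hs2st1 (0.0464) for Trp63, Cda (0.0686) and Rsad1 (0.0750) for Snai2, and Zfp839 (0.0976) and Ddo (0.107) for Ngfr. Pdpn was nearest to Aig1 (0.0411) and Ttc19 (0.0481), Bcam to Ghrl (0.0518) and Tfdp2 (0.0562), and Dapl1 to Slc1a2 (0.0499) and Stab2 (0.0508). Dlk2 was nearest to Pax9 (0.0640) and Rab1b (0.0720), and Nppc to Bhlhe40 (0.0363) and Poll (0.0536). With 5 arrays and many genes, such nearness is a description of these samples. The gene nearest to Nppc, Bhlhe40, read 7138, 9224 and 3903 in duct cells, against 8896 and 6454 in basal cells, with the same high and low duct arrays.

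Promoter sequence is shown for Ngfr, the gene with the largest difference, and for Pdpn and Dapl1, whose profiles were closest to each other. The windows are the 250 bases before the annotated start in RefSeq (GRCm38.p6), 5′ to 3′ on the gene's strand. RefSeq windows were matched for 6 of the 8 genes. Capitals mark matches to TATAAA or GGGCGG on either strand. The coordinates are chr11:95587699-95587948 (minus strand) for Ngfr, chr4:143299565-143299814 (minus strand) for Pdpn and chr2:59484403-59484652 (plus strand) for Dapl1.
Ngfr: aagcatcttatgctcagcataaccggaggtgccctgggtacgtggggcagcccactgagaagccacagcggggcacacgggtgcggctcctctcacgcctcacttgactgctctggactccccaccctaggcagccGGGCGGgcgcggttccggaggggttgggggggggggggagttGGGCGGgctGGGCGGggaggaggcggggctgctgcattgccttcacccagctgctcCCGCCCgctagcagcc
Pdpn: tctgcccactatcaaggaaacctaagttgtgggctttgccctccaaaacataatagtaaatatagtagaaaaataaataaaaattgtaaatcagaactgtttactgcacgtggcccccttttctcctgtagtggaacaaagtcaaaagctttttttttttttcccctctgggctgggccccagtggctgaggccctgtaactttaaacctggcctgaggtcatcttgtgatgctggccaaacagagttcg
Dapl1: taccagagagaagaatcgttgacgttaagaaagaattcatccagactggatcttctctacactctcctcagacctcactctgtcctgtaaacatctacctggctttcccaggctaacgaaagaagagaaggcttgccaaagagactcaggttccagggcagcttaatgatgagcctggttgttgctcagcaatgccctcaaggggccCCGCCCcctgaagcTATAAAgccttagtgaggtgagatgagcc
The Ngfr window held 4 GGGCGG matches and was 70.4% G and C, and the Dapl1 window held 1 GGGCGG match and a TATAAA match 29 bases before the start. Neither motif was found in the Pdpn window, which was 43.2% G and C. Of 32851 windows of this length, 12.4% held TATAAA and 32.7% held GGGCGG. The E-box CAGGTG, which Slug binds, and the p53 family half-site were also searched on both strands. They were present in 17.2% and 7.13% of all windows and in none of the 3 shown. Matches and their absence describe letters in these windows only.

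The genes that work with these 8 were read from lists of pathway partners. Of 22 tested p63 targets in epithelia, 0 passed the test in either direction, and their median log2 fold change was 0.11. The list did not separate genes that p63 raises from genes that it lowers, so the median does not measure p63 activity. Perp, a desmosome protein and p63 target, read 25497 to 30050 in duct cells, against 20589 and 22965 in basal cells. Cdkn1a, the cell cycle inhibitor p21, read 11839 to 14165 in duct cells, against 4634 and 5241 in basal cells (adjusted p = 0.0691, limma). Fgfr2, a receptor of fibroblast growth factors, read 9676 to 10294 in duct cells, against 10261 and 10580 in basal cells. None of these 3 passed, while the levels of Perp and Cdkn1a were higher on every duct array.

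Of 13 tested neurotrophin pathway genes, 0 passed the test and the median was -0.07. Bex3, an adaptor of NGFR, read 2736 to 3512 in duct cells, against 3815 and 3936 in basal cells. Sort1, the receptor of pro-neurotrophins that pairs with NGFR, read 1041 to 3346 in duct cells, against 714.6 and 1708 in basal cells, and Maged1, another NGFR partner, read 1288 to 2087 in duct cells, against 1457 and 1899 in basal cells. Bex3 lay lower on every duct array and the other 2 overlapped. Of the ligands, chosen after their values were seen, Ntf5 (neurotrophin 4) read 235.9, 274.1 and 170.3 in duct cells, against 656.4 and 675.4 in basal cells, and Bdnf read 208.2, 160.6 and 158.5 in duct cells, against 56.5 and 31.8 in basal cells. Both basal readings of Bdnf were at or below the brightest Bacillus probe set of their array. Neither ligand passed (adjusted p = 0.0786 and 0.0726, limma).

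The natriuretic peptide list had 7 tested genes, 0 past the test and a median of -0.49. Pde5a, which breaks down cyclic GMP, read 843.3 to 956.8 in duct cells, against 1408 and 1888 in basal cells, and the protease Furin read 872.6 to 1177 in duct cells, against 1467.91 and 1468.13 in basal cells. Prkg2, a kinase activated by cyclic GMP, overlapped between the groups. Among 10 podoplanin partners 0 passed and the median was 0.004: Cdc42, a small GTPase, and Ezr, which links membrane proteins to actin, had log2 fold changes of -0.02 and 0.21, each with overlapping groups.

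Of 8 tested Snail and EMT genes, 0 passed, with a median of -0.07. After Cdh1 the most intense were Ocln, a tight junction protein, at 2479 to 3374 in duct cells, against 940.1 and 1227 in basal cells, and Cdh3, or P-cadherin, at 247.7 to 420.3 in duct cells, against 613.9 and 716.6 in basal cells. The BCAM and Ig adhesion list had 6 tested genes, 0 past the test and a median of 0.14. Its most intense genes were Icam1, higher on every duct array, Alcam, lower on every duct array, and Sptan1, which encodes a spectrin and overlapped. Of 7 tested Delta-like and Notch genes 0 passed and the median was 0.33. Notch1 read 2670 to 3705 in duct cells, against 1244 and 1742 in basal cells, and Notch2 and the ligand Jag1 were likewise above both basal arrays on every duct array. The Dap family had 4 tested genes, 0 past the test and a median of -0.10. Dap and the kinase Dapk2 overlapped, and the kinase Dapk1, lower on every duct array, read 358.4 to 605.1 in duct cells, against 1120 and 1251 in basal cells. The p53 family list had 2 tested genes, Mdm2 and Trp73, and both overlapped.

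Other basal genes did not share one direction. Of 27 tested non-keratin genes of airway basal cells, 16 were higher and 11 lower in duct cells, with a median of 0.12, and 1 passed the test. That gene was Tnc, which encodes the matrix protein tenascin C, at 1653, 1772 and 2327 in duct cells, against 298.8 and 396.1 in basal cells (adjusted p = 0.0318, limma). All 4 basal keratins were higher on every duct array than on both basal arrays, as were 16.5% of all tested genes, and 2 of them, Krt14 and Krt17, passed the test. Of the 27 non-keratin genes, 8 were lower and 13 higher on every duct array than on both basal arrays. Of the 8 genes described here, 6 were lower on every duct array, as were 22.6% of all tested genes, and none was higher on every duct array.

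**Figure D3:**
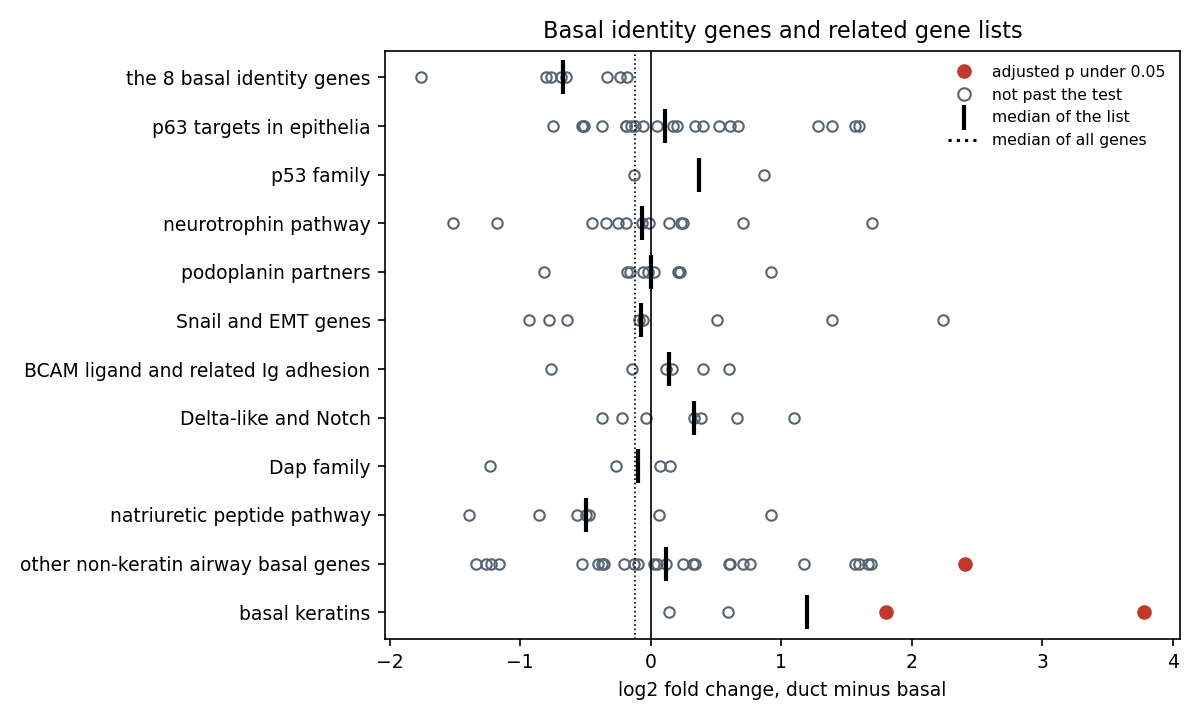
Log2 fold change, duct minus basal, of each tested gene of the set and of lists of related genes, with the list median as a bar and the median of all tested genes as a dotted line. Filled points passed the test (limma, adjusted p under 0.05): Tnc, Krt14 and Krt17. Dlk2 is the rightmost of the 8 genes and turns to 0.02 when arrays are centred on their medians.

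Some of the 8 genes are also expressed by other cells, and markers of those and other cells of the trachea were read on the same arrays, with levels summed over each list. Such sums are set mostly by the brightest probe sets of a list. Ngfr is expressed in Schwann cells, and 3 Schwann markers summed to 1137 to 1342 in duct cells, against 986.2 and 1362 in basal cells. Pdpn is expressed in lymphatic endothelium and fibroblasts. The 5 lymphatic markers summed to 336.1 to 856.3 in duct cells, against 514.6 and 730.1 in basal cells, and the 6 fibroblast markers to 1804 to 4247 in duct cells, against 3791 and 4714 in basal cells. None of these markers was at or below background on every array, but Lum, Col3a1 and Pecam1 were on 3 of 5 arrays. S100b and Pdgfra were there on 2, and Prox1, Flt4 and Cdh5 on 1. Of the 2 Schwann, 2 lymphatic and 3 fibroblast markers tested, each overlapped between the groups and 0 passed (limma).

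Of 7 myoepithelial markers, which summed to 399.9 to 1105 in duct cells, against 673.3 and 970.9 in basal cells, 3 were tested and 0 passed. Myh11, smooth muscle myosin, read 13.6, 80.7 and 30.7 in duct cells, against 357.2 and 288.9 in basal cells, and Acta2, smooth muscle actin, read 316.3, 428.9 and 459.0 in duct cells, against 119.1 and 141.7 in basal cells. Myh11 was thus lower and Acta2 higher on every duct array. Myl9 was lower only by a narrow margin, with its lowest basal reading 1.005 times its highest duct reading. Actg2 was at or below background on all arrays, and Cnn1, Tagln and Oxtr were on 4 of 5. The 4 ciliated markers summed to 197.4 to 684.1 in duct cells, against 610.6 and 825.2 in basal cells. Of the 3 tested, 0 passed. Ccdc39 was lower on every duct array, at 76.6, 129.6 and 64.1 in duct cells, against 263.1 and 329.2 in basal cells. Dnah5 and Tekt1 overlapped, and Foxj1, too dim for the test, was at or below background on 2 of 5 arrays. The 4 club cell markers summed to 72391 to 88514 in duct cells, against 80466 and 123574 in basal cells, with 0 past the test. Cyp2f2 and Scgb3a2 were lower on every duct array, while Scgb1a1 and Scgb3a1 overlapped. Scgb1a1 read 9934 on basal replicate 1 and 32690 on basal replicate 2, and Scgb3a1 read 7615 and 28609 on them. The 5 chondrocyte markers summed to 1479 to 2381 in duct cells, against 571.9 and 699.7 in basal cells, with 0 past the test. Sox9 was the brightest of them on every duct array, at 1135, 1432 and 1024, against 54.5 and 226.7 in basal cells. Comp was also higher on every duct array, while Acan, Col2a1 and Matn1 overlapped. The 4 leukocyte markers summed to 13067 to 20047 in duct cells, against 5698 and 17189 in basal cells, also with 0 past the test. Lyz2 was the brightest of them on every array, at 12275 to 19517 in duct cells, against 5374 and 16327 in basal cells. Lyz2, Ptprc and Cd74 overlapped between the groups, and Cd3e was at or below background on 4 of 5 arrays. The 6 squamous markers summed to 75475 to 97796 in duct cells, against 8637 and 10645 in basal cells, and all 6 passed as higher. Tg, the thyroglobulin gene, read 8779 to 20119 in duct cells, against 11.1 and 53.2 in basal cells, where it was at or below background. The part of other cells in the lower duct levels of the 8 genes was not tested.

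The differences were recomputed under other settings. Trp63, Ngfr, Pdpn, Snai2, Bcam and Dapl1 were lower in duct cells in all 18, and Dlk2 and Nppc turned in 3 of 18 and 2 of 17. A block for the replicate number and leaving out duct replicate 3 gave the same fold changes, since basal cells had no replicate 3. The 2 turns of Nppc are therefore the same estimate. Centring each array on its median moved the median of all tested genes to 0.08, against -0.12 without it. On that scale Trp63 had a log2 fold change of -0.13 and Ngfr one of -1.55, while Dlk2 turned to 0.02.

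**Figure D4:**
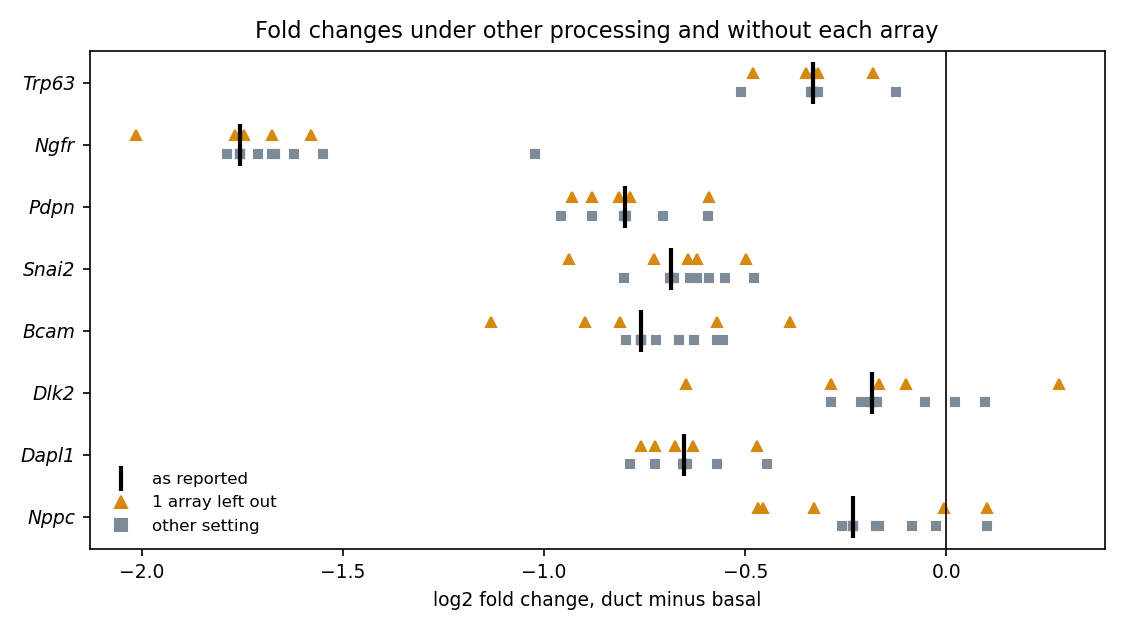
Log2 fold change, duct minus basal, of each gene as reported (bar), with 1 array left out (triangles) and under the other settings (squares). Ngfr lies between -2.01 and -1.02 throughout, and points of Dlk2 and Nppc fall on both sides of 0.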

How the data were processed

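RNA of 5 samples was hybridised to an Affymetrix mouse 3' expression array, per the labels. The deposited table holds 1 linear intensity per probe set and array, scaled by the authors, as its values show; no source used here gives the summary method, background correction, software or any detection calls. Of 45101 probe sets, 64 controls were left out; 34945 had 1 gene symbol in the platform annotation, 932 several and 9160 none.

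Duct minus basal differences of log2(intensity + 16), which understate the change of dim genes, were tested 2-sided in limma 3.58.1 (R 4.3.3; functions lmFit and eBayes), with Benjamini-Hochberg adjustment over all tested genes and a threshold of 0.05 (3 residual and 2.79 prior degrees of freedom). The most intense probe set stood for a gene, and the lowest 40% of probe sets by mean were left out. The written plan said only "by mean". The mean of linear intensities was run first, and the mean of log2 values was adopted after its results had been seen, because it matches the earlier processing of these data; the first rule is kept as an alternative. With 2 and 3 arrays an exact permutation test of 1 gene cannot go below p = 0.1. Precision is limited by how few arrays there are.

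Members and lists were chosen with earlier results of these data known. The text names the 8 genes, the 2 nearest profiles of each, leaving out clone, RIKEN and predicted names, and of each list the genes past the test or else up to 3 of the highest mean intensity; one such podoplanin partner is not reported here, and other names were chosen after their values were seen. Fits were tested on simulated data. The simulation was changed once, after its first version recovered too few of the large changes put in. The changed version drew each gene's spread from the values shrunken by eBayes. Alternatives were quantile normalization, median centring, pseudocounts of 1 and 64, no filter and 60%, all probe sets of a gene averaged, leaving out probe sets that may cross-hybridise, array weights, a robust fit with an intensity trend, each array left out and a block for the replicate number. Replicate numbers do not pair the samples, which came from separate pools. Figures used matplotlib 3.10.9.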

Additional observations from a re-analysis of the deposited data

How the results depend on the processing

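With 2 basal and 3 duct arrays, counts of calls moved widely with the settings. In limma, 122 genes were called, and 338 with median centring, 307 with a pseudocount of 64, 36 with no filter, 408 with the lowest 60% left out, 191 with the mean of probe sets, 942 with an intensity trend and robust fit and 0 to 39 with an array left out; 63 probe sets were called, and 101 with quantile normalization, 375 with median centring, 182 with a pseudocount of 64, 27 with no filter, 341 with the lowest 60% left out, 1215 with the trend and 0 to 24 with an array left out. By array left out, genes called were 39 without duct replicate 1, 23 without duct replicate 2, 1 without duct replicate 3, 2 without basal replicate 1 and 0 without basal replicate 2 (1816 at an unadjusted p under 0.05), and probe sets called were 24 without duct replicate 1 and 0 without each other array (2316 to 3665). With the replicate number as a block, which does not pair these samples (deviations of same-numbered arrays correlated at -0.08 and -0.04), 0 genes and 0 probe sets were called, with 1608 and 2660 at an unadjusted p under 0.05. Of the 8 genes, 0 were called in the reported fit, 2 with the trend (Ngfr, adjusted p = 0.00591, and Pdpn, 0.0238, as were 2 of their probe sets), 1 with the lowest 60% left out (Ngfr, 0.0364) and 1 with a pseudocount of 64 (Ngfr, 0.0467). That last call depended on a choice made after seeing the data: with probe sets ranked and filtered by linear means, the rule run first, Ngfr had an adjusted p of 0.0505 at a pseudocount of 64, where 273 genes and 163 probe sets were called, and 0.0845 at 16, where 118 genes and 55 probe sets were. Dlk2 turned to 0.022 with median centring and 0.10 with the mean of probe sets, and ranged from -0.65 without basal replicate 2 to 0.28 without basal replicate 1; its probe set 1450005_x_at ranged from -0.52 without basal replicate 2 to 1.27 without basal replicate 1. Nppc turned to 0.10 with the block, and ranged from -0.47 without duct replicate 2 to 0.10 without duct replicate 3, the same estimate as with the block. Trp63 1451876_a_at turned to 0.13 with median centring and 0.045 with array weights, and ranged from -0.28 without duct replicate 3 to 0.23 without duct replicate 1. Nppc was too dim for the test with the lowest 60% left out. The cause of these moves was not tested.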

Other observations

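Several further non-keratin basal genes, chosen after their values were seen, had groups that did not overlap and did not pass the test (limma). Igfbp3, which binds insulin-like growth factors, read 9272, 10468 and 8773 in duct cells, against 2887 and 3386 in basal cells (adjusted p = 0.0551), and Sfn, the epithelial 14-3-3 sigma protein, read 2997, 2634 and 2920 in duct cells, against 1080 and 833.9 in basal cells (adjusted p = 0.0622). The caveola gene Cav1 read 3685, 3549 and 3704 in duct cells, against 7676 and 9513 in basal cells (adjusted p = 0.0828), and Sox2, a transcription factor of the airway epithelium, read 2153, 3178 and 2705 in duct cells, against 6158 and 5747 in basal cells (adjusted p = 0.112). Igfbp3 and Sfn were higher and Cav1 and Sox2 lower on every duct array.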
